A study of Mus musculus with 1307 samples.

Results

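Myocd and 9 other regulators of transcription that are known from the cells of the vessel wall (Srf, Mef2c, Foxs1, Hic1, Ebf1, Zeb2, Nr2f2, Tcf21 and Eya2) were followed through single cells of the adult mouse heart. They were chosen by name, with earlier results of these data known, as 10 of the 46517 genes in the deposited count table. Shares of all genes called, given beside theirs below, are therefore no blind reference. All 10 passed the filter on low counts. The study sorted cells of dissociated hearts one by one into plates and sequenced each cell with the Smart-Seq2 protocol, which reads whole transcripts and counts reads, not molecules. The 1307 cells came from 8 mice aged 8 to 30 weeks.

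There were 949 cells from 3 ACTA2GFP:CSPG4dsRED mice, called double-reporter mice here. In that strain, as its name gives it, a green protein reports Acta2 (smooth muscle actin) and a red one reports Cspg4 (NG2, carried by mural cells). A further 352 cells came from 3 C57BL/6 mice, which carry no reporter, with 347, 4 and 1 cells. The remaining mice gave 3 cells of CSPG4dsRED and 3 cells of ACTA2GFP. No group had a treatment or a deletion. The series' design text speaks of male mice, whereas the sample labels call double-reporter mouse 3 female. The sort gate of each plate is not given in the sources used here, so class sizes are not read as cell numbers in the heart. Double-reporter mice 1, 2 and 3 gave 368, 245 and 336 cells, each on 1 plate, and plate and mouse cannot be told apart.

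Counts per cell ran from 50476 to 811982 with a median of 274702, and the median cell had 4549 detected genes. Cells were grouped by clustering without the genes tested here. Smooth muscle-like cells, 223 in all, were divided at 500 CPM of Rgs5 (CPM, counts scaled to a total of 1000000) into 131 Rgs5-high and 92 Rgs5-low cells. The highest Rgs5 value below that division was 438 CPM and the lowest above it 501 CPM. A separate cluster had 5 of 8 markers of smooth muscle and 3 of 8 of pericytes raised, at 100 CPM or more and at least 2 times the mean over clusters. The cluster also had 1 of 10 fibroblast and 3 of 7 cardiomyocyte markers raised. Its 65 cells with at least 100 CPM of Vtn are called Vtn-positive mural cells. Vtn alone does not set them apart. By mouse it was at 3246 to 3303 CPM in them, 2757 to 3324 CPM in pericyte-like cells and 109 to 247 CPM in Rgs5-high cells. In Rgs5-low cells it was at 3.47 to 8.34 CPM. The other classes compared were 72 pericyte-like, 486 fibroblast-like and 263 endothelial-like cells. Of the endothelial-like cells, 257 came from C57BL/6 mouse 1, so endothelial values rest on 1 mouse, and strain, plate and cell class cannot be told apart there.

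The classes were named from the marker lists summed here, so these levels describe the names and do not test them. Marker levels went with the names, apart from the mixed class and from cardiomyocyte markers in endothelial-like cells. Endothelial-like clusters 3 and 4 had 4 of 7 cardiomyocyte markers raised, and the part of carried-over RNA there was not tested. The summed level of 8 smooth muscle markers was 19091 to 28345 CPM in both smooth muscle classes, 11636 to 11975 CPM in Vtn-positive mural cells and 2701 to 2865 CPM in pericyte-like cells. The summed level of 8 pericyte markers was 13045 to 15023 CPM in pericyte-like cells, 4050 to 4802 CPM in Vtn-positive mural cells and at most 2108 CPM in smooth muscle. Vtn-positive mural cells also held 8346 to 13782 CPM of 10 fibroblast markers, against 20989 to 31657 CPM in fibroblasts. Pdgfra, a defining fibroblast receptor, stood at 0.947 to 3.05 CPM in them against 107 to 436 CPM in fibroblasts. The part of carried-over RNA in their values was not tested.

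Mural cells wrap the endothelium: smooth muscle cells around arteries and veins, pericytes around capillaries. Myocardin, the product of Myocd, is a coactivator that binds the serum response factor SRF. The pair switches on contractile genes through a DNA element called the CArG box, and myocardin is known as the master regulator of the smooth muscle programme. MEF2C is a related DNA-binding factor of muscle and endothelium. Of the others, Foxs1, Ebf1, Hic1 and Nr2f2 encode factors of pericyte, mesenchymal and venous cells, while Zeb2, Tcf21 and Eya2 are better known from mesenchymal transitions, fibroblasts and muscle progenitors.

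Levels below are CPM of the counts summed over all cells of a class in a mouse, and sums of fewer than 10 cells entered no mean or test. Changes are log2 differences fitted with edgeR to 12 such sums of the double-reporter mice, with the mouse as a block and p-values adjusted over 17400 genes. A change is called at an adjusted p under 0.05, and the comparisons share sums. In simulated sums only 0 to 4 of 67 genes changed 4-fold were called per comparison. A change that was not called is thus no sign of equal levels. Against pericytes, smooth muscle had 4 of the 10 regulators called, where 4.1% of all genes tested were called. Of the 4, 1 was higher and 3 were lower in smooth muscle, against 2.33% and 1.77% of all genes. Vtn-positive mural cells differed from smooth muscle in 3 regulators (2.09% of all genes), all higher (1.32% higher and 0.77% lower over all genes). They differed from pericytes in 1, higher in them (1.45% of all genes, 1.15% higher and 0.305% lower). Smooth muscle differed from fibroblasts in 7 regulators (5.74% of all genes), 5 higher (2.14%) and 2 lower (3.6%). Pericytes differed from fibroblasts in 5 (3.76%), 4 higher (1.18%) and 1 lower (2.57%). None of the 10 was called between Rgs5-high and Rgs5-low smooth muscle, where 0.218% of all genes were, 0.0747% higher and 0.144% lower. In that comparison 5 of the 10 had an unadjusted p under 0.05, as had 1364 of all 17400 genes, and DESeq2 called 3. DESeq2 called 8 regulators between smooth muscle and pericytes, Ebf1, Zeb2, Srf and Eya2 beside the 4 named by edgeR. It called 6 between Vtn-positive mural cells and smooth muscle, with Mef2c, Foxs1 and Hic1 added, and 4 between Vtn-positive mural cells and pericytes. Over all genes, too, DESeq2 called more than edgeR in each of these comparisons, with counts given below under the dependence on processing. In all, 20 of 60 tests on these regulators were called by edgeR.

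**Figure D1:**
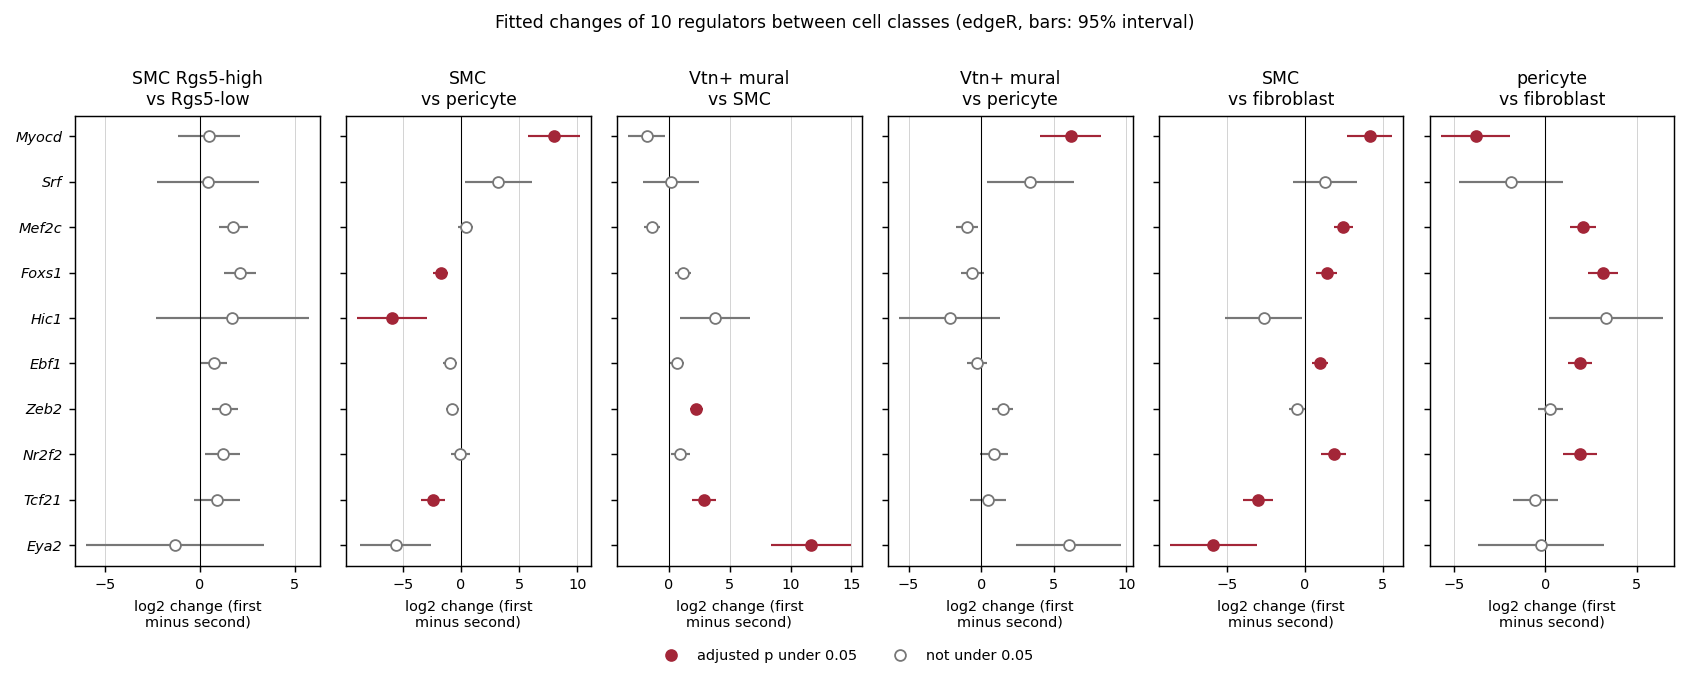
Fitted log2 change of each regulator (rows) in 6 comparisons of cell classes (panels), with 95% intervals as bars and filled red points for an adjusted p under 0.05. Myocd lies far to the right against pericytes (8.00) and Eya2 far to the right in Vtn-positive mural cells against smooth muscle (11.66), while no point is filled in the Rgs5 panel.

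Myocd, at 11:65176561-65269989 on the minus strand of GRCm38, had its highest sums in smooth muscle, at both Rgs5 levels. In Rgs5-high cells of double-reporter mice 1, 2 and 3 it stood at 584, 436 and 517.04 CPM (512 ± 74.3 CPM, SD, n = 3 mice). In Rgs5-low cells of mice 1 and 2 it stood at 515 and 418 CPM (467 ± 68.5, SD, n = 2). These ranges overlapped, and the fitted difference was 0.49 (95% interval -1.14 to 2.12, adjusted p = 1.0). Vtn-positive mural cells had 124 and 157 CPM, below every smooth muscle sum. The fitted difference from smooth muscle was -1.84 (adjusted p = 0.251) and did not pass the test.

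In pericytes Myocd was near 0, at 3.53 and 1.29 CPM in mice 1 and 2, and at 2.23 CPM in the 9 pericytes of mouse 3. Myocd was higher in smooth muscle than in pericytes by 8.00 on the log2 scale (SE 0.98, adjusted p = 0.00291), in both mice with both classes. In mouse 2, 6344 counts in 76 smooth muscle cells stood against 2 counts in 13 pericytes. The ratio of CPM was 331, with a counting interval of 91.5 to 2731 that leaves out the spread between cells. Vtn-positive mural cells were higher than pericytes too, by 6.16 (SE 0.94, adjusted p = 0.016). Both calls were lost without mouse 2, at 7.83 (adjusted p = 0.0513) and 5.25 (adjusted p = 0.26). The second was also lost without mural cells holding over 10000 CPM of fibroblast markers (4.88, adjusted p = 0.0852) and with a stricter filter on cells, at least 100000 counts and 2000 genes (6.00, adjusted p = 0.153).

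Shares of single cells were counted as well. Cells with at least 1 Myocd count made up 80.9% of Rgs5-high, 93.5% of Rgs5-low, 56.9% of Vtn-positive mural and 31.9% of pericyte-like cells. Schwann-like cells, a class not known for Myocd, held it in 17 of 68 cells, at a median depth of 307895 counts against 270280 (270280.5) in pericytes. Of the 435 cells with a Myocd count, 188 had only 1 or 2 counts. Shares are therefore given from here on for at least 5 counts, where Schwann-like cells reach 1.47% for Myocd. By that measure Myocd marked 66.7, 67.4 and 73.7% of Rgs5-high cells and 87.5 and 78.8% of Rgs5-low cells. It marked 23.9 and 41.2% of Vtn-positive mural cells, and 2.04 and 0% of pericytes. With each cell thinned to 50000 counts, which every cell exceeded, cells with at least 1 count were 68.1 to 78.9%, 81.8 to 89.3% and 6.12 to 7.69% of Rgs5-high, Rgs5-low and pericyte-like cells. Intervals on these shares cover counting error only.

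**Figure D2:**
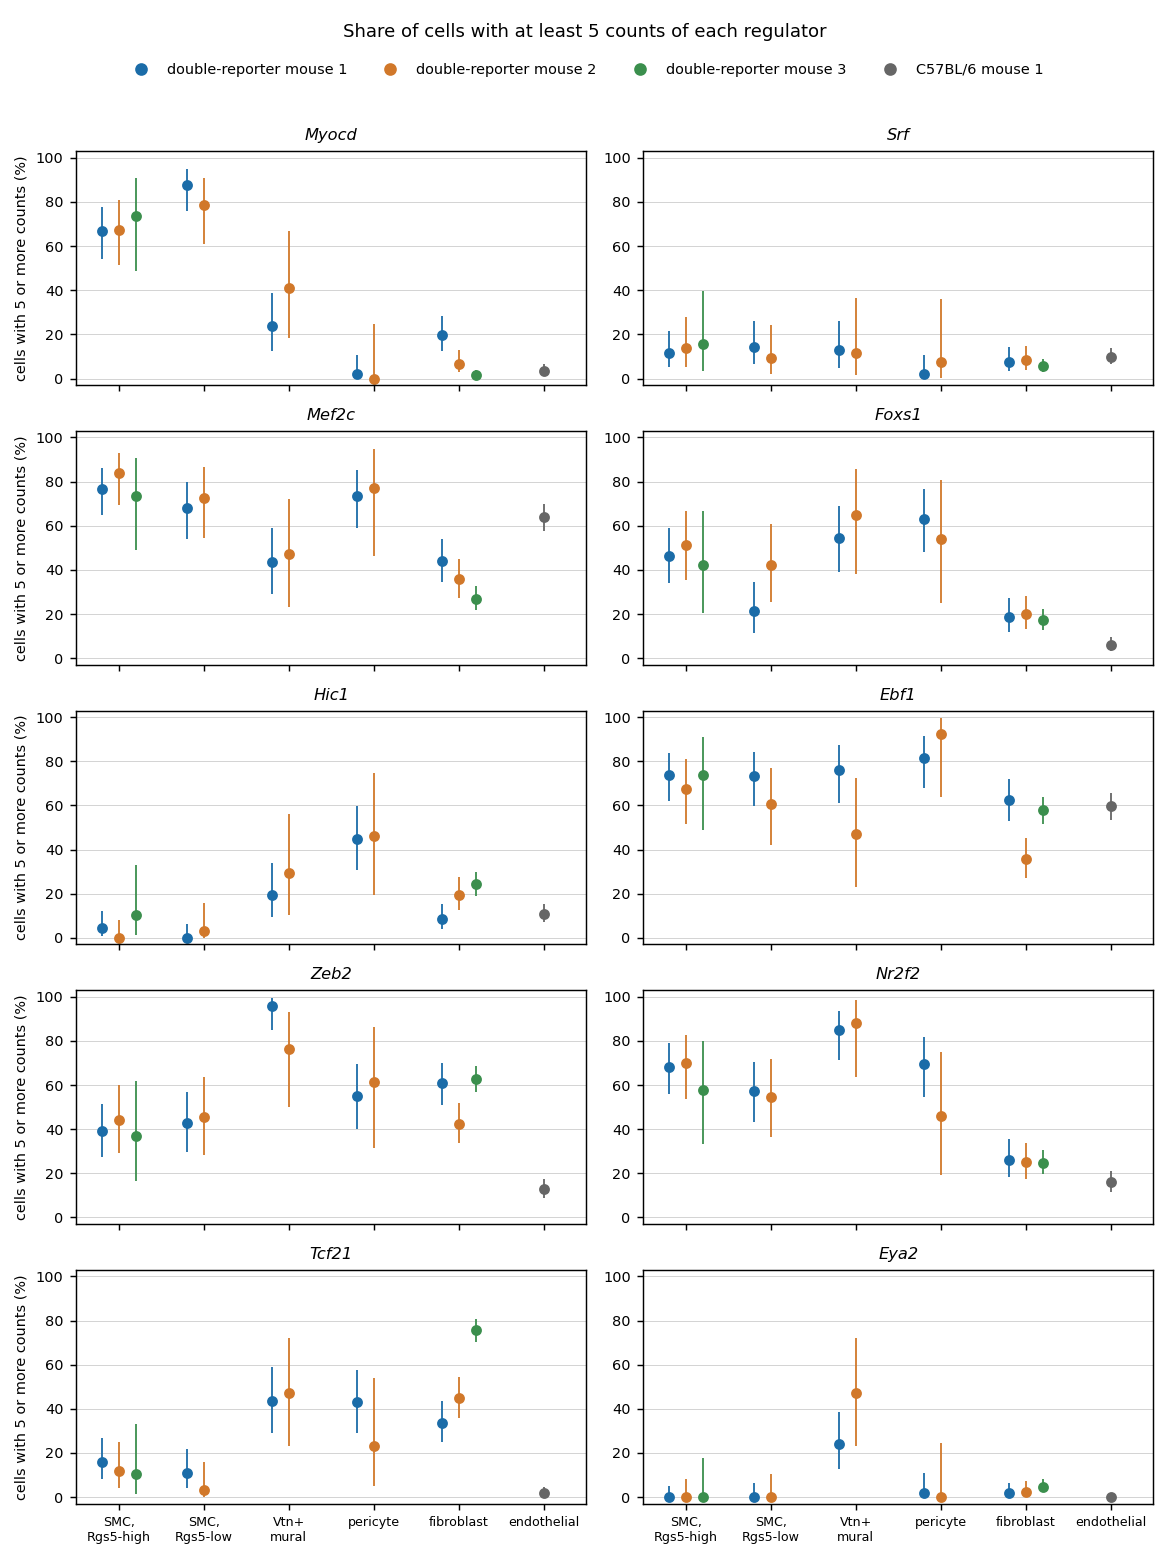
Share of cells with at least 5 counts of each regulator (y axis, percent) by cell class (x axis) and mouse (colour), with exact Clopper-Pearson 95% intervals as bars. Myocd falls from 66.7 to 87.5% in smooth muscle to 23.9 and 41.2% in Vtn-positive mural cells and at most 2.04% in pericytes, whereas Zeb2 and Nr2f2 have their highest shares in Vtn-positive mural cells.

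Fibroblasts had 82.0, 13.9 and 8.79 CPM of Myocd in mice 1, 2 and 3, a spread of more than the mean (34.9 ± 40.9 CPM, SD, n = 3). Smooth muscle was higher by 4.17 (SE 0.65, adjusted p = 0.00608), and higher in 3 of 3 mice. Pericytes were lower than fibroblasts (log2 change -3.83, adjusted p = 0.0384). Summed smooth muscle markers in fibroblasts moved in the same order over the mice, with 3896, 1463 and 747 CPM, and their part in the Myocd values was not tested. Both calls were lost when fibroblast cluster 1, led by Wif1 and Chad, was left out (3.52, adjusted p = 0.102, and -4.79, adjusted p = 0.124). Without mouse 2 they were lost too (3.83, adjusted p = 0.0625, and -4.00, adjusted p = 0.222), and the second was lost without mouse 1 (-3.27, adjusted p = 0.101) and with the stricter filter on cells (-3.69, adjusted p = 0.235).

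Srf (17:46548329-46556175, minus strand), which encodes the DNA-binding partner of myocardin, was low in every class. It stood at 19.7, 30.2 and 26.5 CPM in Rgs5-high cells, 34.2 and 6.94 CPM in Rgs5-low cells and 21.6 and 31.0 CPM in Vtn-positive mural cells. Pericytes had 0.980 and 5.17 CPM, and fibroblasts 13.96, 7.38 and 6.37 CPM. The 3 Myocd-bearing classes thus overlapped with each other and lay above the pericyte sums. The difference of 3.19 between smooth muscle and pericytes had an interval of 0.31 to 6.07 and did not pass (adjusted p = 0.223). At least 5 counts of Srf were held by 12.98% of Rgs5-high cells. By edgeR Srf was called in none of the 6 comparisons, with an unadjusted p under 0.05 in 2 of them (smooth muscle and Vtn-positive mural cells against pericytes). DESeq2 called both (3.08, adjusted p = 0.00896, and 3.27, adjusted p = 0.0246).

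The Srf promoter is shown because it holds 2 copies of the element that SRF itself binds. Promoters from RefSeq (GRCm38.p6, 250 bases before to 50 after a gene's start) were matched for 7 of the 10 regulators and searched on both strands for the CArG box, CC and GG around a run of A and T bases. Among these 7 the box was found in Srf alone. It was found in 3 of 21 matched SRF target genes, namely Ldb3, Myl9 and Vcl, and in 488 of 27025 genes overall (1.81%). In the stretches below, all upstream of the start and printed 5′ to 3′ on the gene's strand, capitals mark the box.
Srf promoter, chr17:46556185-46556274, minus strand, boxes 82 and 62 bases upstream: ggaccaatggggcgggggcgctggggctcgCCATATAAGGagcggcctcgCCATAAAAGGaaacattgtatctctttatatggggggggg
Ldb3 promoter, chr14:34588682-34588746, minus strand, box 35 bases upstream: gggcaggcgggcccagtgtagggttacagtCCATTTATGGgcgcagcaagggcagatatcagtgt
Myl9 promoter, chr2:156775273-156775342, plus strand, box 161 bases upstream: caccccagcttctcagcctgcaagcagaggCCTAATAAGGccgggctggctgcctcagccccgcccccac
Vcl promoter, chr14:20929148-20929210, plus strand, box 227 bases upstream: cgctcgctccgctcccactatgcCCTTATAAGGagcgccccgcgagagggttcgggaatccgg
A match of letters is a description of the sequence and says nothing of binding in these cells.

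Textbook targets of myocardin and SRF were tested beside Myocd. Markers used to name the classes were left out, which left 17 targets. Against pericytes, 12 of the 17 were higher in smooth muscle and none lower, against 2.33% and 1.77% of all genes. The median log2 change was 2.23 against 0.27 over all genes tested. Ldb3, a Z-disc protein, stood at 320 CPM in smooth muscle and 0.490 CPM (15 counts) in pericytes, and Actg2, an actin of visceral and vascular smooth muscle, at 512 and 4.04 CPM. Between Vtn-positive mural cells and pericytes 5 of 17 were higher (1.15% of all genes), Actg2 (7.86) and the actin-binding Synpo2 (5.38) by the most, with a median of 1.40 against 0.13. Against fibroblasts 15 of 17 were higher in smooth muscle (2.14% of all genes, median 2.79 against -0.37) and 4 of 17 in pericytes (1.18% of all genes, median 0.44 against -0.63). Des, the muscle intermediate filament, was higher in pericytes than in fibroblasts by 3.57 (adjusted p = 0.00376). Without mouse 2 the counts of higher targets in these 4 contrasts were 2, 0, 8 and 1, without mouse 1 they were 10, 3, 14 and 3, and without mouse 3 they were 12, 4, 10 and 4. Between Vtn-positive mural cells and pericytes 1 of 17 was higher without mural cells high in fibroblast markers, and without the Wif1 and Chad cluster 10 and 2 targets were higher than in fibroblasts.

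Vtn-positive mural cells were lower than smooth muscle in 2 of the 17 targets (0.77% of all genes), and 15 did not pass. Pln, which restrains the calcium pump of the sarcoplasmic reticulum, was at 25.4 CPM in them and 630 CPM in smooth muscle (log2 change -4.48, adjusted p = 0.0323). Itga8, an integrin chain of smooth muscle, was lower as well (89.3 against 571 CPM, log2 change -3.02). No target was called between the Rgs5 classes, where the median was -0.10 against -0.05 over all genes. There 2 of the 17 had an unadjusted p under 0.05, as had 1364 of all 17400 genes. DESeq2 called none on that axis either, and 6 of the 17 lower in Vtn-positive mural cells. With edgeR, 1 was lower there without mouse 1, and 0 without mouse 2 or without mural cells high in fibroblast markers.

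Among 14 tested partners and modulators of SRF, 5 were higher in smooth muscle than in pericytes and none lower (2.33% and 1.77% of all genes). They include Hdac9, a histone deacetylase known to bind MEF2 factors, at 21.4 against 0.0330 CPM, and Elk1, an ETS factor that shares SRF with myocardin, at 20.6 against 0.294 CPM. The pericyte values of these 2 genes rest on 1 and 9 counts. The LIM protein gene Fhl1 gave the single call on the Rgs5 axis (0.218% of all genes). Fhl1 was lower in Rgs5-high cells (446 against 2466 CPM, log2 change -2.32, adjusted p = 0.0122). Csrp2, a LIM protein of smooth muscle, was lower in Vtn-positive mural cells than in smooth muscle (189 against 691 CPM, adjusted p = 0.0145), and Hdac9 was lower there as well (0.146 CPM, from 4 counts, against 21.4 CPM). Between Vtn-positive mural cells and pericytes 2 of 14 were higher (1.15% of all genes), Csrp1 at 676 against 41.7 CPM and Fhl1 at 2003 against 409 CPM. Pericytes were lower than fibroblasts in both of these genes, the 2 calls among 14 (2.57% of all genes lower, median -1.60 against -0.63). Smooth muscle was higher than fibroblasts in 3 (2.14% of all genes), with the kinase gene Prkg1 at 108 against 13.3 CPM. Without mouse 1 or mouse 2 only 1 partner was higher in smooth muscle than in pericytes, none was called on the Rgs5 axis and none between Vtn-positive mural cells and smooth muscle. With any of the 3 mice left out 1 was higher in smooth muscle than in fibroblasts.

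Mef2c (13:83504034-83667080, plus strand) had separate ranges at the 2 Rgs5 levels of smooth muscle. It stood at 661, 834 and 754 CPM in Rgs5-high cells and at 218 and 278 CPM in Rgs5-low cells. The fitted difference was 1.75 (interval 0.99 to 2.51) and did not pass over all genes (adjusted p = 0.0889), whereas DESeq2 called it (adjusted p = 0.000796). Pericytes held 412 and 327 CPM, above both Rgs5-low sums, and Vtn-positive mural cells 150.5 and 184.5 CPM, below them. Mef2c was higher in smooth muscle than in fibroblasts by 2.47 (SE 0.27, adjusted p = 0.00112), against 93.0, 92.1 and 48.9 CPM there, a call made in 13 of 13 alternatives. Pericytes were higher than fibroblasts by 2.06 (adjusted p = 0.00769), a call lost without mouse 1 (1.95, adjusted p = 0.0876) or mouse 2 (2.37, adjusted p = 0.106). Endothelial-like cells of C57BL/6 mouse 1 had 296 CPM, and 63.8% of them had at least 5 counts.

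**Figure D3:**
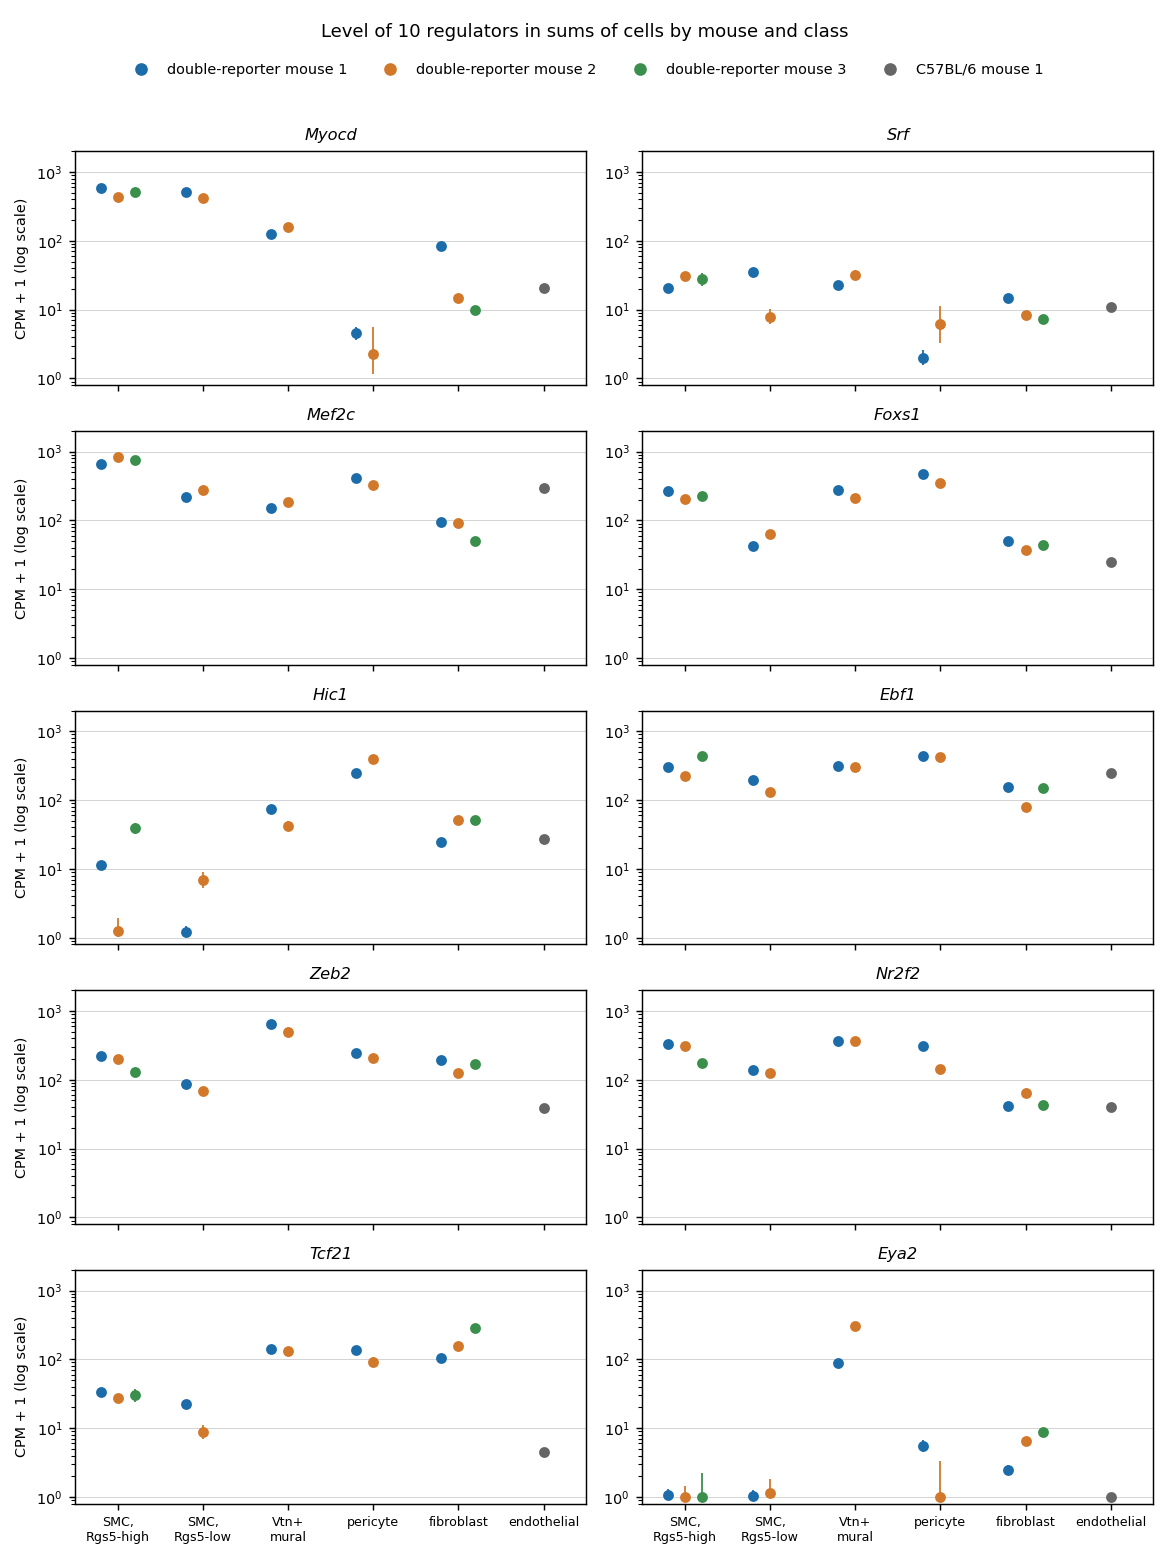
Level of each regulator by cell class (x axis) and mouse (colour), in CPM of summed counts plus 1 on a log axis, with counting intervals as bars. Myocd drops from 418 to 584 CPM in smooth muscle to 1.29 to 3.53 CPM in pericytes, while Foxs1, Ebf1 and Hic1 have their highest class mean in pericytes.

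Foxs1, a forkhead factor, had its highest level in pericytes and its lowest mural level in Rgs5-low smooth muscle. Pericytes of mice 1 and 2 stood at 479 and 344 CPM, and the 9 pericytes of mouse 3 at 429 CPM. Rgs5-high cells had 267, 203.8 and 224 CPM, Vtn-positive mural cells 273 and 208 CPM, and Rgs5-low cells 40.8 and 63.4 CPM. The Rgs5-high and Vtn-positive ranges overlapped, and the Rgs5-low sums lay near the 36.8 to 48.8 CPM of fibroblasts. Between the Rgs5 classes the fitted difference was 2.12 (SE 0.37, interval 1.28 to 2.96), and with an adjusted p of 0.065 it was not called. DESeq2 called it (adjusted p = 2.68e-06), and so did edgeR with no mouse block (2.14, adjusted p = 0.0295). Foxs1 was lower in smooth muscle than in pericytes (log2 change -1.75, adjusted p = 0.0123), and was higher in pericytes than in fibroblasts by 3.15 (adjusted p = 0.00175), the latter in 13 of 13 alternatives. The former was lost without mouse 1 (-1.47, adjusted p = 0.127) and without mouse 2 (-2.14, adjusted p = 0.0945), and with the stricter filter on cells (-1.95, adjusted p = 0.0734).

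Smooth muscle was higher in Foxs1 than fibroblasts by 1.40 (adjusted p = 0.0233). This call was lost without mouse 1, 2 or 3 (adjusted p = 0.0915, 0.251 and 0.0777) and without the Wif1 and Chad cluster of fibroblasts (0.83, adjusted p = 0.243). By length, Foxs1 was the most abundant of the 10 in Rgs5-high cells, at 177 CPM per kilobase of exon. Myocd followed at 79.8, Mef2c at 47.7, Ebf1 at 32.5 and Nr2f2 at 31.3 CPM per kilobase. Foxs1 has 1311 exonic bases, at 2:152931898-152933208 in GRCm38, the shortest model among the 10. Lengths are the union of exons over all annotated transcripts of a gene (15715 bases for Mef2c), and the order rests on that choice.

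Ebf1, an early B cell factor gene that is also active in pericytes and stroma, was broad. It stood at 431 and 419 CPM in pericytes, 310 and 304 CPM in Vtn-positive mural cells, 297, 222 and 432 CPM in Rgs5-high cells and 192.5 and 129 CPM in Rgs5-low cells. Endothelial-like cells had 248.5 CPM and fibroblasts 151.5, 78.1 and 149 CPM. Pericytes were higher than fibroblasts by 1.90 (SE 0.30, adjusted p = 0.00872), a call lost without mouse 2 (1.62, adjusted p = 0.255) or the Wif1 and Chad cluster (1.46, adjusted p = 0.0618), or with the stricter filter on cells (1.73, adjusted p = 0.063). Smooth muscle was higher than fibroblasts by 0.98 (adjusted p = 0.0479), a call lost in 10 of 13 alternatives, each mouse left out among them (adjusted p = 0.148, 0.272 and 0.166). Schwann-like cells set the floor with at most 2.07 CPM.

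Hic1, a zinc finger repressor known from resting mesenchymal progenitors, had its highest sums in pericytes. It stood at 246 and 390 CPM in pericytes of mice 1 and 2, at 104 CPM in the 9 pericytes of mouse 3, and at 72.8 and 41.3 CPM in Vtn-positive mural cells. Fibroblasts had 23.8, 49.96 and 50.4 CPM. Smooth muscle sums ran from 0.196 to 37.7 CPM, and 1 cell gave 81.0% of the counts in Rgs5-high cells of mouse 1. Hic1 was lower in smooth muscle than in pericytes (log2 change -5.94, SE 1.33, adjusted p = 0.041). In mouse 1, 3760 counts in pericytes stood against 199 in smooth muscle, a ratio of 48.3. Its counting interval of 41.9 to 56.0 leaves out the spread between cells. At least 5 counts were found in 44.9 and 46.2% of pericytes and in 3.82% of Rgs5-high cells. The call was lost without mouse 1 (-6.42, adjusted p = 0.109), without mouse 3 (-6.18, adjusted p = 0.0525), with the stricter filter on cells (-5.83, adjusted p = 0.232) and without mural cells high in fibroblast markers (-5.82, adjusted p = 0.0631).

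Nr2f2, which encodes the nuclear receptor COUP-TFII of venous and lymphatic vessels, was highest in Vtn-positive mural cells, at 363.5 and 364 CPM. At least 5 counts were found in 84.8 and 88.2% of these cells. Rgs5-high cells had 324, 311 and 174.5 CPM, Rgs5-low cells 138 and 123 CPM, and pericytes 312 and 143 CPM. Rgs5-high and pericyte ranges overlapped, the Rgs5-low sums lay below both, and no contrast among the 4 mural classes passed for Nr2f2. Against fibroblasts (39.9, 63.6 and 41.9 CPM) Nr2f2 was higher in smooth muscle by 1.85 (adjusted p = 0.0154) and in pericytes by 1.91 (adjusted p = 0.0374). Both calls were lost without mouse 1 (1.62, adjusted p = 0.0921, and 1.06, adjusted p = 0.301) and mouse 2 (2.08, adjusted p = 0.0872, and 2.69, adjusted p = 0.109), and the second also without mouse 3 (adjusted p = 0.054). Without the Wif1 and Chad cluster they were 1.203 (adjusted p = 0.0847) and 1.204 (adjusted p = 0.195). Of 13 alternatives, the smooth muscle call was made in 9 and the pericyte call in 6. An opposite-strand gene, B130024G19Rik, overlaps its exons over 643 bases, and the strand setting of the counting is not given in the sources used here.

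Zeb2, a zinc finger repressor of epithelial genes, was higher in Vtn-positive mural cells than in smooth muscle. It stood at 635 and 485 CPM there, against 220, 200.02 and 129 CPM in Rgs5-high and 86.4 and 67.3 CPM in Rgs5-low cells. The groups did not overlap, and Zeb2 was higher by 2.24 on the log2 scale (SE 0.25, interval 1.69 to 2.79, adjusted p = 0.00291). Pericytes, at 245 and 206 CPM, and fibroblasts, at 195, 125 and 171 CPM, lay below both Vtn-positive sums. The difference of 1.48 between Vtn-positive mural cells and pericytes did not pass (adjusted p = 0.0581), whereas DESeq2 called it (adjusted p = 0.000529), as did edgeR with at least 4 cells per sum (1.62, adjusted p = 0.0452). Zeb2 was found with at least 5 counts in 95.7 and 76.5% of Vtn-positive mural cells, 55.1 and 61.5% of pericytes and 36.8 to 45.5% of smooth muscle cells, mouse by mouse. Without mouse 1 or 2 the call was lost at about the same size (2.23, adjusted p = 0.0935, and 2.31, adjusted p = 0.119), as it was without mural cells high in fibroblast markers (2.30, adjusted p = 0.0568). With a coarser clustering (resolution 0.5) the tested class was 15 Vtn-positive smooth muscle cells of mouse 1. The Zeb2 change from smooth muscle was then 0.60 and was not called. Exons of Zeb2 overlap Zeb2os and Gm27761 on the opposite strand and Mir5129 on its own strand over 662 bases.

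Tcf21, a basic helix-loop-helix factor required for cardiac fibroblasts, was low in smooth muscle. Fibroblasts had 104, 155 and 287 CPM, Vtn-positive mural cells 140.5 and 132.2 CPM, and pericytes 137 and 89.9 CPM, and these ranges overlapped. Smooth muscle had 32.5, 26.8 and 29.2 CPM in Rgs5-high and 21.7 and 7.81 CPM in Rgs5-low cells, below all of them. Tcf21 was lower in smooth muscle than in fibroblasts (log2 change -2.98, adjusted p = 0.0042), a call lost only without mouse 2 (-2.55, adjusted p = 0.119). It was lower in smooth muscle than in pericytes (-2.41, adjusted p = 0.0171) and higher in Vtn-positive mural cells than in smooth muscle by 2.88 (adjusted p = 0.0121). Both calls were lost without mouse 1 (-2.59, adjusted p = 0.0625, and 3.33, adjusted p = 0.0528), without mouse 2 (-2.48, adjusted p = 0.192, and 2.62, adjusted p = 0.242) and without mural cells high in fibroblast markers (-2.54, adjusted p = 0.127, and 2.32, adjusted p = 0.461), and the first also with the stricter filter on cells (-2.53, adjusted p = 0.0879). With the coarser clustering neither was called, at -2.73 (adjusted p = 0.0577) against pericytes and 2.36 in Vtn-positive cells against smooth muscle. Fibroblast markers summed to 8346 and 13782 CPM in Vtn-positive mural cells and to 2682 to 3113 CPM in pericytes, and their part in the Tcf21 values was not tested.

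Eya2, a coactivator with phosphatase activity that works with sine oculis homeobox factors, lies at 2:165595032-165771727 on the plus strand. It was found in Vtn-positive mural cells at 87.4 and 303 CPM and at no more than 7.78 CPM in any sum of the other classes compared. In smooth muscle 1 count was found in Rgs5-high cells of mouse 1, 1 in Rgs5-low cells of mouse 1 and 1 in Rgs5-low cells of mouse 2. Over mice 1 and 2, 2490 counts in 63 Vtn-positive mural cells stood against 3 counts in 201 smooth muscle cells, a ratio of CPM of 2490 with a counting interval of 851 to 12083. Eya2 was called higher in Vtn-positive mural cells (log2 change 11.66, SE 1.46, adjusted p = 0.00409), and the groups did not overlap. Pericytes of mouse 1 held 70 counts, 97.1% of them in 1 cell, and those of mouse 2 held none. The ratio to pericytes was 19.1 in mouse 1 (counting interval 15.02 to 24.7) and at least 156-fold higher in mouse 2 against a limit of 3 counts. The fitted difference from pericytes did not pass (6.03, adjusted p = 0.134), whereas DESeq2 called it (6.00, adjusted p = 0.000281).

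At least 5 counts of Eya2 were found in 23.9 and 47.1% of Vtn-positive mural cells and in 0 of 131 Rgs5-high cells, which allows a share of up to 2.29% by a limit of 3 cells and 2.78% by the exact interval. Fibroblasts had 1.47, 5.50 and 7.78 CPM, and Eya2 was lower in smooth muscle than in fibroblasts (log2 change -5.87, adjusted p = 0.026). That call was made in 10 of 13 alternatives, and was lost without mouse 2 (-5.34, adjusted p = 0.251) and mouse 3 (-5.58, adjusted p = 0.0731) among others. The call against smooth muscle was lost without mouse 2 (10.995, adjusted p = 0.145), and without mural cells high in fibroblast markers it was 12.92 (adjusted p = 0.0568). With a coarser clustering the mixed mural cluster joined a fibroblast cluster, the class was left with Vtn-positive smooth muscle cells, and the Eya2 change was -3.11 (adjusted p = 0.949).

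Within Vtn-positive mural cells the regulators were not all in the same cells. Of 65 cells, 59 had at least 5 counts of Zeb2, 56 of Nr2f2, 38 of Foxs1, 28 of Tcf21, 21 of Eya2 and 20 of Myocd. Zeb2 was present in 18 of the 20 cells with Myocd and in 19 of the 21 cells with Eya2. Myocd and Eya2 met in 7 cells, and Myocd and Tcf21 in 8. These cells come from 4 mice (46, 17 and 1 of double-reporter mice 1, 2 and 3 and 1 of the ACTA2GFP mouse) and share each cell's depth, so they are a description with no test.

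The Rgs5 division cut across the 2 smooth muscle clusters, so the regulators can be read within 1 Rgs5 class in both. Cluster 2 held nearly all Rgs5-high cells and also 15 and 16 Rgs5-low cells of mice 1 and 2. Cluster 8 held 41 and 17 Rgs5-low cells, and 7, 2 and 1 Rgs5-high cells of mice 1, 2 and 3. Rgs5 itself differed between the clusters within the Rgs5-high class. It stood at 5698, 7288 and 6590 CPM in cluster 2 and at 1187, 1125 and 1675 CPM in cluster 8. Nr2f2 stayed at 345 and 262 CPM in Rgs5-low cells of cluster 2, near the 373, 330 and 182 CPM of its Rgs5-high cells, and was at 70.0 and 24.5 CPM in cluster 8. Its Rgs5-low sums thus did not overlap between the clusters, with no test run. Foxs1 stood at 309, 217 and 234 CPM in Rgs5-high cells of cluster 2, at 11.1 and 72.9 CPM in its Rgs5-low cells and at 50.5 and 56.6 CPM in Rgs5-low cells of cluster 8. In the few Rgs5-high cells of cluster 8 it was at 21.9 CPM in mouse 1 and at 0 counts in mice 2 and 3. In cluster 2 of mouse 2 the cells with at least 5 counts of Foxs1 were 22 of 41 Rgs5-high and 8 of 16 Rgs5-low cells. Zeb2 stood at 229, 194 and 136 CPM, then 78.6 and 61.4 CPM, then 88.9 and 71.4 CPM in the 3 larger sets, and at 162, 297 and 0 CPM in the 7, 2 and 1 Rgs5-high cells of cluster 8.

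Mef2c took a middle value in Rgs5-low cells of cluster 2, at 343 and 433 CPM, between 721 to 862 CPM in its Rgs5-high cells and 177 and 169 CPM in cluster 8. Myocd was at 637 and 583 CPM in Rgs5-low cells of cluster 2 and at 475 and 302 CPM in cluster 8. With the 2 clusters compared in place of the Rgs5 division, a choice made after the data were seen, 3 regulators were called. They were Foxs1 (2.13, adjusted p = 0.0136), Mef2c (2.05, adjusted p = 0.0212) and Nr2f2 (3.02, adjusted p = 0.0245), all higher in cluster 2. Median depth was 217772 counts in cluster 2 and 323886 in cluster 8, and fibroblast markers summed to 2621 to 3803 CPM in Rgs5-high and 5730 to 7002 CPM in Rgs5-low cells. The part of either in these differences was not tested.

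**Figure D4:**
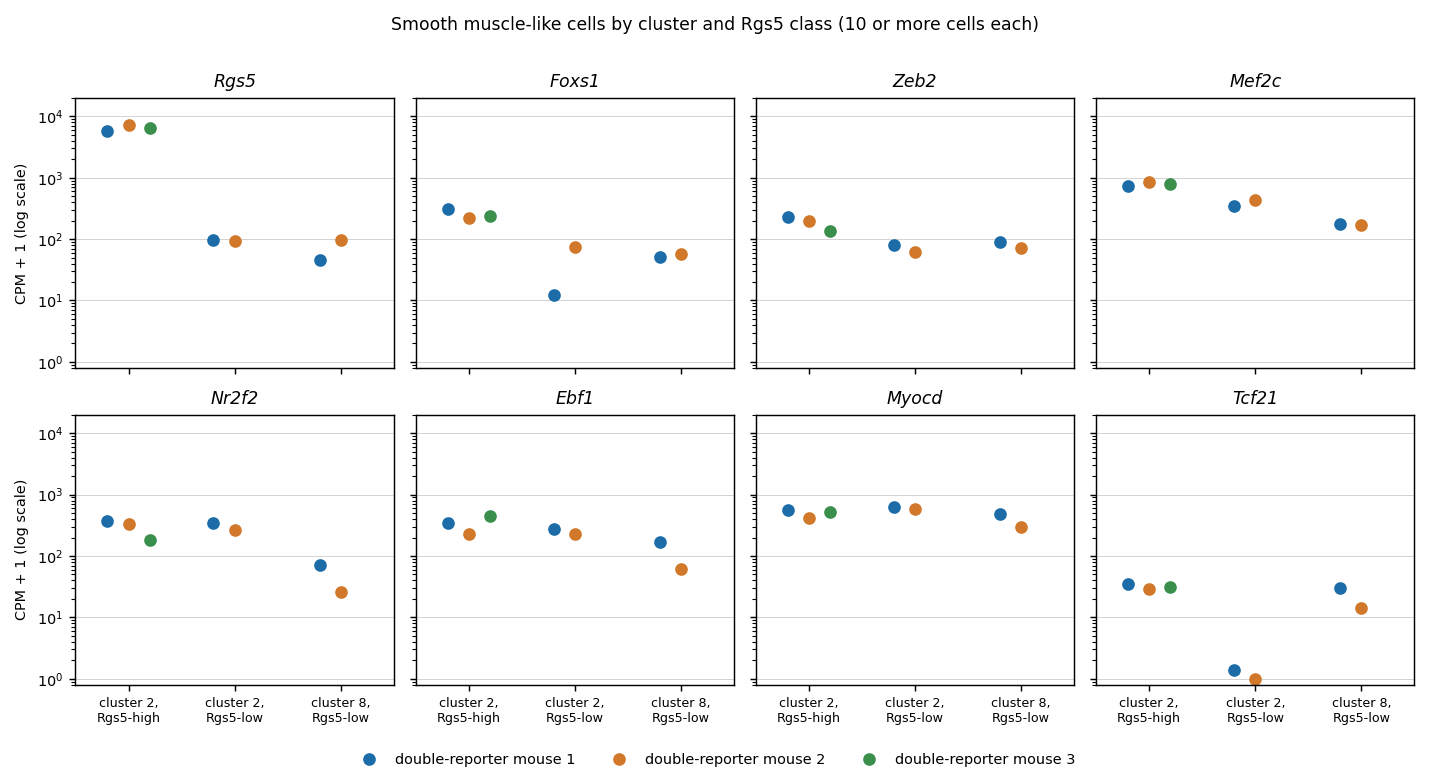
Rgs5 and 7 regulators in smooth muscle-like cells, by cluster and Rgs5 class (x axis) and mouse (colour), in CPM plus 1 on a log axis. Nr2f2 is low only in cluster 8 (70.0 and 24.5 CPM), whereas Foxs1 and Zeb2 are low in Rgs5-low cells of both clusters. Rgs5-high cells of cluster 8, fewer than 10 in each mouse, are not drawn.

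Fibroblasts were not uniform in these genes. Tcf21 stood at 26.0, 25.3 and 37.3 CPM in cluster 1 of mice 1, 2 and 3 and at 147, 293 and 272 CPM in cluster 5. It stood at 298 and 333 CPM in cluster 0 of mice 2 and 3 and at 276 and 342 CPM in cluster 11 of mice 1 and 3. Cluster 1 was thus the low one in every mouse, at a level like that of smooth muscle. Myocd was at 251 CPM in cluster 11 of mouse 1, where 53.3% of cells had at least 5 counts, but at 19.7 CPM in that cluster of mouse 3. Acta2 was at 3197 and 214 CPM and Myh11, the smooth muscle myosin, at 956 and 6.399 CPM in these 2 sums, and their part in the Myocd values was not tested. In cluster 0 Myocd was at most 0.964 CPM. Zeb2 had its fibroblast peak in cluster 11, at 431 and 492 CPM, and Eya2 was at most 0.253 CPM in cluster 1 against 24.1 and 9.59 CPM in cluster 0.

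Endothelial-like cells fell into 3 clusters of C57BL/6 mouse 1. Myocd was at 0.323 and 0.287 CPM in clusters 3 and 4 and at 125.6 CPM in cluster 13, a group of 29 cells. Foxs1 had the same form, with 1.72, 3.37 and 143 CPM, and so had Tcf21, with 0.0746, 0.0718 and 21.9 CPM. Cluster 13 also carried 1519 CPM of Acta2 and 3128 CPM of Rgs5 and had a median of 429865 counts per cell. Mef2c was high in all 3 clusters (298, 247 and 399 CPM), as was Ebf1 (205, 299 and 277 CPM). In clusters 3 and 4 none of the other 8 regulators exceeded 39.4 CPM. Nr2f2 was at 39.4, 10.9 and 106 CPM and Zeb2 at 26.0, 16.4 and 126.6 CPM.

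**Figure D5:**
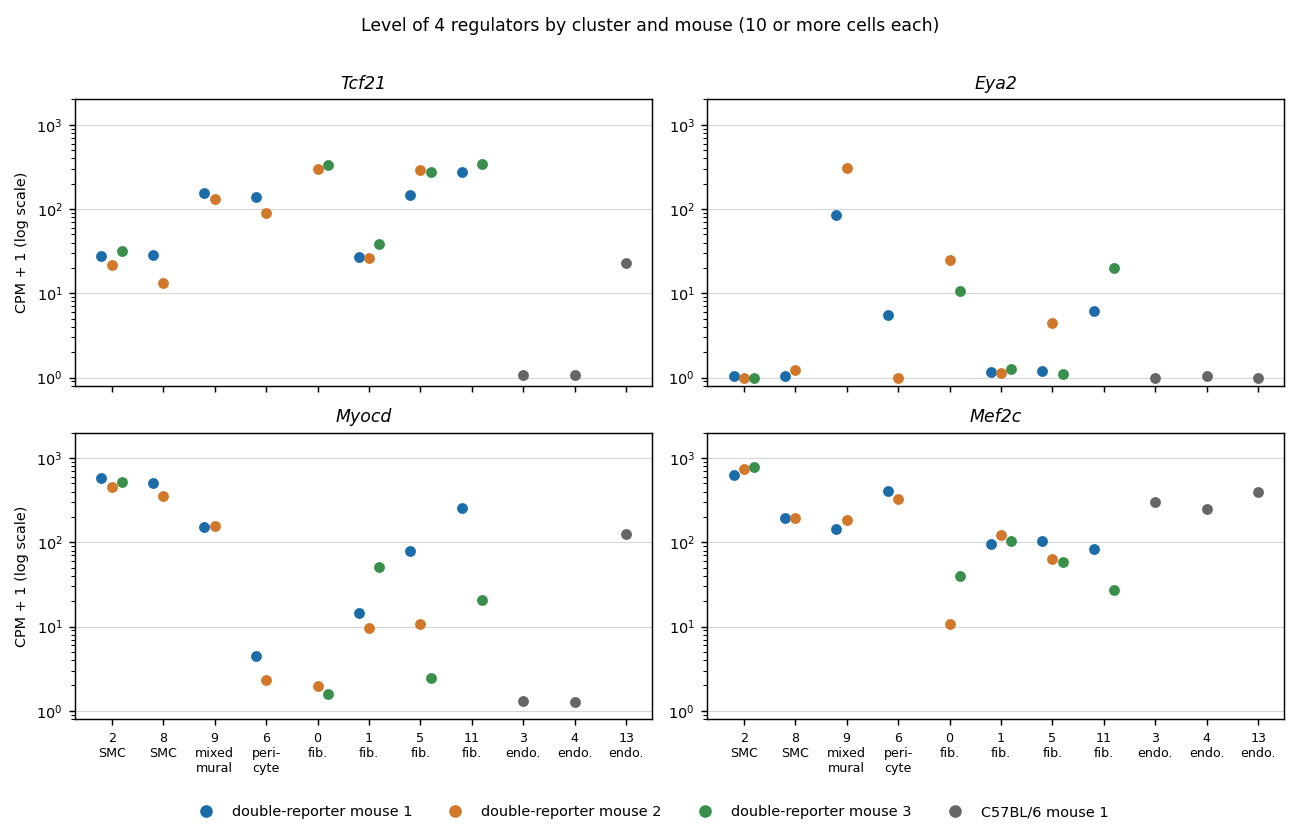
Tcf21, Eya2, Myocd and Mef2c by cluster (x axis; SMC, smooth muscle; fib., fibroblast; endo., endothelial) and mouse (colour), in CPM plus 1 on a log axis. Tcf21 is low in fibroblast cluster 1 of all 3 mice (25.3 to 37.3 CPM), and Myocd is near 0 in endothelial clusters 3 and 4 but at 125.6 CPM in cluster 13.

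Other transcription factors of mural and stromal cells, 39 tested, moved in both directions. Against pericytes 3 were lower in smooth muscle and none higher (1.77% and 2.33% of all genes). Among the 3 were the T-box gene Tbx20 (34.6 against 354 CPM, adjusted p = 0.00305) and Snai1, a zinc finger repressor (33.0 against 140.1 CPM). Vtn-positive mural cells had more Prrx1, a homeobox gene of mesenchyme, than smooth muscle (689 against 157 CPM, adjusted p = 0.045) and than pericytes (81.2 CPM, adjusted p = 0.0371). They had less Id1, an inhibitor of helix-loop-helix factors, than smooth muscle (24.6 against 208 CPM). Against fibroblasts 5 of 39 were higher and 4 lower in smooth muscle (2.14% and 3.6% of all genes), with Tbx2 at 200.4 against 3.30 CPM, the Notch target Hey2 at 125 against 7.33 CPM and the homeobox gene Meox1 at 3.21 against 576 CPM. Pericytes had 5 higher and 2 lower (1.18% and 2.57% of all genes), Tbx2 and Tbx3 among the former and Meox1 and Nfix among the latter. On the Rgs5 axis none of 39 was called by edgeR and 4 by DESeq2. In edgeR 11 had an unadjusted p under 0.05 there, as had 1364 of all 17400 genes. Without mouse 2 none of these genes was called between Vtn-positive mural cells and smooth muscle or pericytes, or lower in smooth muscle than in pericytes.

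Of 27 tested relatives of the 10 genes, 1 was called between smooth muscle and pericytes and 1 between Vtn-positive mural cells and smooth muscle. Over all genes tested, 4.1% and 2.09% were called there. Against fibroblasts 3 were called in smooth muscle (5.74% of all genes), 1 higher and 2 lower, and 2 in pericytes (3.76% of all genes), 1 higher and 1 lower. None was called between Vtn-positive mural cells and pericytes or on the Rgs5 axis by edgeR, where DESeq2 called 3 and 1. At an unadjusted p under 0.05 in edgeR there were 3 and 2, against 2375 and 1364 of all 17400 genes. Without mouse 2 or mouse 3 none of them was called in any comparison. Tcf15, a helix-loop-helix relative of Tcf21, was higher than in fibroblasts (0.256 CPM) both in smooth muscle (37.3 CPM, adjusted p = 0.00881) and in pericytes (22.2 CPM, adjusted p = 0.0258). Msc, another relative of Tcf21, was higher in Vtn-positive mural cells than in smooth muscle (30.0 against 0.501 CPM, adjusted p = 0.0341). Msc was lower in smooth muscle than in fibroblasts as well (0.501 against 37.1 CPM). Both calls rest on 8 counts of Msc in smooth muscle. Six5, a sine oculis homeobox gene, was the single relative called between smooth muscle and pericytes (24.1 against 0.421 CPM, adjusted p = 0.0405), with 4 counts in pericytes.

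Genes with the most similar pattern were ranked by Pearson's r of log2(CPM + 1) over 19 sums of at least 10 cells, among 10882 genes. The sums share mice and depth, so the values describe and carry no p. Myocd was closest to Dmpk (0.95), Synpo2 (0.93) and Kcnab1 (0.92). Foxs1 was closest to Notch3 (0.98), Cend1 and Aspn (both 0.97), and Ebf1 to Lrrc32 (0.97), Il15ra (0.96) and Tspan12 (0.92). Tcf21 was closest to Mrc2 (0.96), Fap (0.95) and Thbs2 (0.95), and Eya2 to Ccl11 (0.98), Nr1h4 (0.92) and Masp1 (0.90). The 5 others had lower best values, between 0.88 and 0.93: Mef2c with Slc25a5, Srf with Mamdc2, Hic1 with Plxdc1, Nr2f2 with Fermt2 and Zeb2 with Fam49a. Myocd and Srf had an r of 0.77 with each other.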

How the data were processed

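The deposited table holds raw read counts, whole numbers by gene and cell. Per the submitters' processing notes, the authors used bcl2fastq, Bowtie, Bowtie2, featureCounts and Subread with GRCm38 (mm10). Versions, roles and strand setting are not given in the sources used here. Mice were read from the labels' mouse identifiers.

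All 1307 cells passed 10000 counts and 500 genes. Scrublet marked 14 doublets, which were kept. Cells were clustered with scanpy 1.11.5 (Leiden, resolution 1) without the genes tested, and classes were named from marker lists. Counts of all cells of 1 class in 1 mouse (10 cells or more) were added up and tested with edgeR 4.0.16 (TMM, filterByExpr, quasi-likelihood F test, Benjamini-Hochberg over 17400 genes) in 1 fit of 5 classes with 5 residual degrees of freedom, after a test on simulated data. In the simulated sums, 0 to 4 of 67 genes changed 4-fold were called per comparison, and 10 to 22 of 67 changed 16-fold. The block stands for the same animal. Within mice, deviations of 21 class pairs correlated at 0 to 0.126. Intervals of changes use the fit's own degrees of freedom, and intervals of shares are 95% Clopper-Pearson. Gene positions and exon lengths come from the GRCm38 annotation.

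All 10 regulators are named. Of each other list at most 4 called genes per comparison are named, the largest changes each way. The regulators and lists were chosen with earlier results of these data known. Alternatives covered scaling, DESeq2 1.42.0, filters, the block, clustering, doublets, the Rgs5 division and each mouse left out. The 3 on clusters for the Rgs5 division, fibroblast-marker-high mural cells and the Wif1 and Chad cluster were added after the data were seen.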

Additional observations from a re-analysis of the deposited data

Results flagged for a closer look

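Mice with few cells entered no comparison, yet several regulators exceeded 3 counts in their cells, the limit used for a count of 0. The single Vtn-positive mural cell of the ACTA2GFP mouse had 189 counts of Eya2, 150 of Zeb2, 68 of Foxs1, 64 of Nr2f2, 6 of Myocd and 4 of Ebf1, out of 146112 counts in the cell. Eya2 thus appeared at a high count in such a cell of a mouse outside the tests. The 2 mixed mural cells with low Vtn of that mouse had 9 counts of Ebf1, 7 of Nr2f2, 6 of Zeb2 and 5 of Myocd, and 1 count of Eya2. The 3 endothelial-like cells of C57BL/6 mouse 2 had 77 counts of Nr2f2, 53 of Ebf1 and 27 of Mef2c. The 1 macrophage-like cell of C57BL/6 mouse 3 had 32 counts of Mef2c.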

How the results depend on the processing

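Counts of called genes and of called regulators moved with the settings. On the Rgs5 axis (38 genes and 0 regulators in the report) there were 751 genes and 3 regulators with DESeq2, 79 genes with no filter on low counts, 92 and 1 with no replicate block, 21 genes at Leiden resolution 0.5, 20 genes with the division at 100 CPM, 58 and 1 at 1000 CPM, 352 and 3 with clusters, 18 genes without mural cells high in fibroblast markers, and 0 to 27 genes with 1 mouse left out. For smooth muscle against pericytes (714 and 4) there were 2903 and 8 with DESeq2, 233 and 2 with stricter cells, 2 regulators without mural cells high in fibroblast markers, and 134 to 673 genes and 1 to 3 regulators with 1 mouse left out. For Vtn-positive mural cells against smooth muscle (364 and 3) there were 2017 and 6 with DESeq2, 92 and 0 at resolution 0.5, 48 and 0 without those mural cells, and 26 to 305 genes and 0 to 3 regulators with 1 mouse left out. Against pericytes (253 and 1) there were 1998 and 4 with DESeq2, 2 regulators from 4 cells per sum, 97 genes at resolution 0.5, 60 and 0 with stricter cells, 94 and 0 without those mural cells, and 8 to 247 genes and 0 to 1 regulators with 1 mouse left out. For smooth muscle against fibroblasts (999 and 7) there were 2379 genes with DESeq2, 4 regulators at resolution 0.5 and 4 without the Wif1 and Chad cluster, and 278 to 527 genes and 1 to 4 regulators with 1 mouse left out. For pericytes against fibroblasts (654 and 5) there were 2690 genes with DESeq2, 263 and 3 with stricter cells, 2 regulators without the Wif1 and Chad cluster, and 165 to 555 genes and 1 to 4 regulators with 1 mouse left out.

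Leaving out mouse 1 or 2 takes the residual degrees of freedom from 5 to 1, and leaving out mouse 3 to 4. Among changes called in the report or in the alternative, the single one to reverse was Eya2 in Vtn-positive mural cells against smooth muscle at resolution 0.5, at -3.11. Changes called in neither also turned in sign. Among them were Mef2c in the same comparison (-1.40 in the report, up to 1.01) and Eya2 in Vtn-positive mural cells against pericytes (6.03, down to -8.30). With no replicate block 57 of 60 tests of the regulators gave the same call, 2 gained one (Foxs1 on the Rgs5 axis, and Eya2 in smooth muscle against pericytes with adjusted p = 0.0256) and Ebf1 against fibroblasts lost it (0.88, adjusted p = 0.119). DESeq2's size factors shifted the median of all genes by 0.161 for pericytes against fibroblasts, -0.125 for smooth muscle against pericytes and -0.106 for Vtn-positive mural cells against pericytes. Without Scrublet doublets all 60 calls were the same. Shares of positive cells moved by more than their spread in 65 of 100 cases at 5 counts and in 58 of 100 after thinning, and levels did in 23 of 100 with a mean over cells.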

Other observations

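Outside the mural and fibroblast classes, some regulators had high levels in cells of other lineages. Zeb2 stood at 403, 596 and 702 CPM in Schwann-like cells of the 3 double-reporter mice and at 361 CPM in macrophage-like cells of mouse 3, and the Schwann-like range overlapped that of Vtn-positive mural cells. Mef2c was at 408 CPM in those macrophage-like cells. Nr2f2 was at 272 CPM in lymphatic endothelial-like cells of C57BL/6 mouse 1, against 39.7 CPM in its blood endothelial-like cells. Hic1 was at 83.0 CPM and Ebf1 at 333 CPM in endocardial-like cells of that mouse, where Myocd had 0 counts in 65 cells. In macrophage-like cells of C57BL/6 mouse 1, 84 counts of Eya2 came from 1 of 6 cells. Apart from the Schwann-like cells, these values come from 1 mouse each and carry no test.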
